A study of Mus musculus with 6 samples.

Results

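Mitosis genes that encode the cyclins and kinases of mitotic entry, the spindle checkpoint, the kinetochore and the spindle motors were followed through 6 mRNA sequencing libraries of mouse pluripotent cells. The set holds 41 genes chosen by name, and all 41 were found among the 22558 gene names of the deposited tables. The libraries came from 1 culture each. They were embryonic stem cells (ESC) of strain 129Sv whose H2A.X gene had been deleted with Cre (H2A.X KO), the 129Sv ESC with the undeleted Flox/Flox gene, and 4 lines of induced pluripotent stem cells (iPSC) of a 129Sv/C57 mixed background. Peritoneal fibroblasts (PF) gave 1 iPSC line labelled 4N- and 1 labelled 4N+, and tail tip fibroblasts (TTF) did the same. What 4N means is not spelled out in the labels. Outside them it is known as tetraploid complementation, in which the injected cells must build the embryo proper on their own. H2A.X is a variant of histone H2A that becomes phosphorylated near DNA breaks, and no H2A.X genotype is labelled for the iPSC lines. All cultures were at passage 25 and had been grown on feeder cells with LIF, then moved to gelatin to remove the feeders before RNA was taken.

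Cells enter mitosis when CDK1, bound to a cyclin A or cyclin B, is switched on by CDC25 phosphatases against the brake of WEE1. Aurora and Polo-like kinases then build the spindle, and the spindle checkpoint holds back the anaphase-promoting complex and its activator CDC20 until every kinetochore is attached. Most of these genes are transcribed in G2 and mitosis through the CHR element and CCAAT boxes in their promoters, which are read by the MuvB complex with MYBL2 or FOXM1 and by the factor NF-Y. Mouse ESC divide rapidly with a short G1, and such genes are abundant in them.

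Promoter sequences from RefSeq (assembly GRCm38.p6) were available for 32 of the 41 genes, each with 250 bases before and 50 bases after the annotated start. The CHR core was searched as TTTGAA and, in its second form, as TTCGAA. The box was searched as CCAAT. Both strands were read, and each motif was counted whether or not its letters overlapped those of the other. The CHR core letters were present in 23 of the 32 promoters, which is 71.9%, against 19.4% of all 27025 promoters of the same length. CCAAT letters were present in 25 of the 32, which is 78.1%, against 37.9% of all promoters. Both motifs stood in 21 of the 32 promoters, a share of 65.6% against 7.7%. A pair of CCAAT boxes on the same strand, 31 to 33 bases apart, stood in 6 of the 32, a share of 18.8% against 0.862% of all promoters. These shares describe letters in a window and no binding.

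The promoters printed here were chosen after the values were seen. They are of 3 genes that were among the lowest in H2A.X KO relative to Flox/Flox ESC (Top2a, Kif11 and Bub1), of 3 genes with spaced CCAAT pairs (Cdk1, Aurka and Ccnb2) and of 2 genes that were not lower there (Cdc20 and Cdc25b). Capitals mark the CCAAT box and the CHR core, in either orientation, and each line runs 5′ to 3′ on the strand of its gene.
Top2a: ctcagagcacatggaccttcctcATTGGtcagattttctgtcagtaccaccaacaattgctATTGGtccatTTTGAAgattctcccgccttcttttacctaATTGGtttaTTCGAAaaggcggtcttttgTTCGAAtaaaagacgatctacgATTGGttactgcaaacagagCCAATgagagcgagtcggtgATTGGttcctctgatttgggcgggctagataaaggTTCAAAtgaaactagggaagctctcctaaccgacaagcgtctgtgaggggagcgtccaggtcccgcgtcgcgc
Kif11: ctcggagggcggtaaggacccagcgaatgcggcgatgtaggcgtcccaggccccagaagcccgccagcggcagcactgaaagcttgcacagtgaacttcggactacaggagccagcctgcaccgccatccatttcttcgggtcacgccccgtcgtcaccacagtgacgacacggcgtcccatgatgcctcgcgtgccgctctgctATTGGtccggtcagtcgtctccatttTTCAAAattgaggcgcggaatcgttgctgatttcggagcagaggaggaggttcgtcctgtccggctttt
Bub1: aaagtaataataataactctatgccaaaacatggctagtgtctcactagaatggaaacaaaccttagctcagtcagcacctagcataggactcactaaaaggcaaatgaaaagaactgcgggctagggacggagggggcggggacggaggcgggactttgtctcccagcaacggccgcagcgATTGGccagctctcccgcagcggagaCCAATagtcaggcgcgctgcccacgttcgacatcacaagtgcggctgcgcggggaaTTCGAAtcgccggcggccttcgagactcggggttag
Cdk1: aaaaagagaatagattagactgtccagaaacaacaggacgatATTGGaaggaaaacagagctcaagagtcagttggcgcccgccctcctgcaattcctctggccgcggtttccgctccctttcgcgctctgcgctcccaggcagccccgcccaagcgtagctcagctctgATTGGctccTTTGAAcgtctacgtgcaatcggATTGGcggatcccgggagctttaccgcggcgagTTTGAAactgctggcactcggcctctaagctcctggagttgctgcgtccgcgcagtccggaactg
Aurka: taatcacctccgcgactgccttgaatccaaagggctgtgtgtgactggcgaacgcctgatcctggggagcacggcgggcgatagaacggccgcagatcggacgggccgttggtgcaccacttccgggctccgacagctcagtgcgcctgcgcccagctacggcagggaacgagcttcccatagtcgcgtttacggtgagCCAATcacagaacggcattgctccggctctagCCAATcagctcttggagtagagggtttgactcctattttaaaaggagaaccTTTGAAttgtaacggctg
Ccnb2: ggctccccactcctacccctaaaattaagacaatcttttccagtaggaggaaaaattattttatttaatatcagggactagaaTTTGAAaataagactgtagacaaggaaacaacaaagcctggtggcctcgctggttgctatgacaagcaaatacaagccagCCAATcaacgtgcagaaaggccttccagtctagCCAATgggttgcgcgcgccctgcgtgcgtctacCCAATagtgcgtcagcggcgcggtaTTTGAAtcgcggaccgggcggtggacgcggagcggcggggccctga
Cdc20: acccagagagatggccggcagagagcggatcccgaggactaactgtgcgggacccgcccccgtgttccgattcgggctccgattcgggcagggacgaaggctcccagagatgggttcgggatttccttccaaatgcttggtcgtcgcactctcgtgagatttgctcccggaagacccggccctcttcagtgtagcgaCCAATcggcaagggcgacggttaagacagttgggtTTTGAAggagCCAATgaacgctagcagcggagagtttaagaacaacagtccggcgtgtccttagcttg
Cdc25b: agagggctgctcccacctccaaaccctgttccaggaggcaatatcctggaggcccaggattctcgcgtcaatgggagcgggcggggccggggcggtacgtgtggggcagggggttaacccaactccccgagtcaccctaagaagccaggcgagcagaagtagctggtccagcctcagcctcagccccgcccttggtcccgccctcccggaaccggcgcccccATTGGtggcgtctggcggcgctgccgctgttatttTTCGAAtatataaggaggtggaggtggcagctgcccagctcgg

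On GRCm38.p6 these windows are chr11:99024140-99024439 (minus strand) for Top2a, chr19:37376132-37376431 (plus strand) for Kif11 and chr2:127831810-127832109 (minus strand) for Bub1. Those of the spaced pairs are chr10:69352863-69353162 for Cdk1, chr2:172370521-172370820 for Aurka and chr9:70421505-70421804 for Ccnb2, all on the minus strand. The windows of Cdc20 and Cdc25b are chr4:118437294-118437593 (minus strand) and chr2:131186698-131186997 (plus strand). The Top2a window holds 4 CHR cores and 6 CCAAT boxes. Cdk1 has CCAAT boxes 80 and 48 bases before its start and a CHR core 15 bases before it. Ccnb2 has a row of 3 CCAAT boxes, at 87, 54 and 21 bases before the start. The promoters of Cdc20 and Cdc25b hold both motifs as well, with 1 CHR core each and 2 and 1 CCAAT boxes. In the 32 promoters the CHR cores lay close to the start, at a median of 10 bases before it over 30 matches, and the CCAAT boxes farther upstream, at a median of 58 bases before it over 51 matches. Single matches depart from this order, such as a CHR core of Bub1b 188 bases before the start, upstream of its CCAAT box at 113 bases. The other CHR core of Bub1b lies 40 bases after the start.

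**Figure D1:**
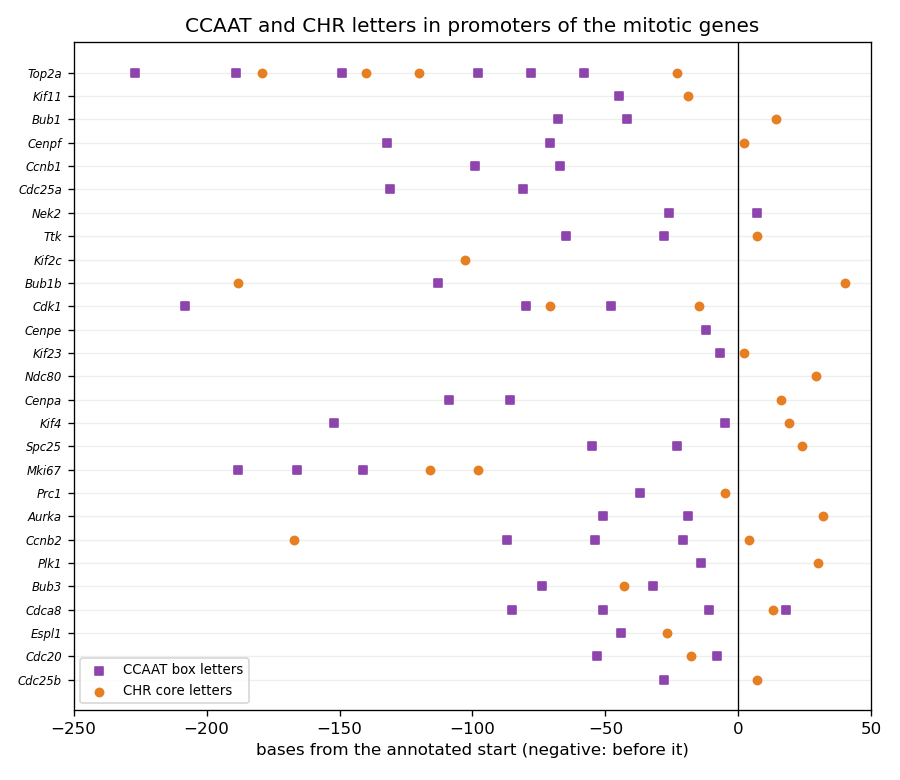
Positions of CCAAT letters (purple squares) and CHR core letters (orange circles) relative to the annotated start, in bases, in the promoters that hold at least 1 of them, ordered from the gene lowest in H2A.X KO relative to Flox/Flox ESC at the top to the highest at the bottom. CCAAT boxes lie mostly upstream of the start and CHR cores mostly near it, and genes at both ends of the order hold both.

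Levels are given in FPKM, fragments scaled to transcript length and to library depth, as the authors deposited them. All 41 genes were above 1 FPKM in every library. Their median level stood between the percentiles 87.8 and 90.5 of the genes at 1 FPKM or more in a library. The lowest value of any member was 7.42 FPKM (Cdc25b in the 4N- TTF line) and the highest 394 FPKM (Top2a in the 4N+ PF line). Effective depth, recovered from the steps in low values of short receptor genes, was 39100000 to 61300000 fragments per library. At that depth the lowest member of a library stood for about 736 to 919 fragments on a transcript of 2000 bp, so counting error is small beside a 1.5-fold difference, though not beside the smallest ratios. There was 1 library per condition within each table, and no ratio within a table has a replicate check. H2afx, the H2A.X gene, was at 6.18 FPKM in H2A.X KO and 34.9 FPKM in Flox/Flox ESC, in the direction of the labels, and at 65.3 to 75.2 FPKM in the iPSC lines. All 10 pluripotency markers checked were above 1 FPKM in all 6 libraries.

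**Figure D2:**
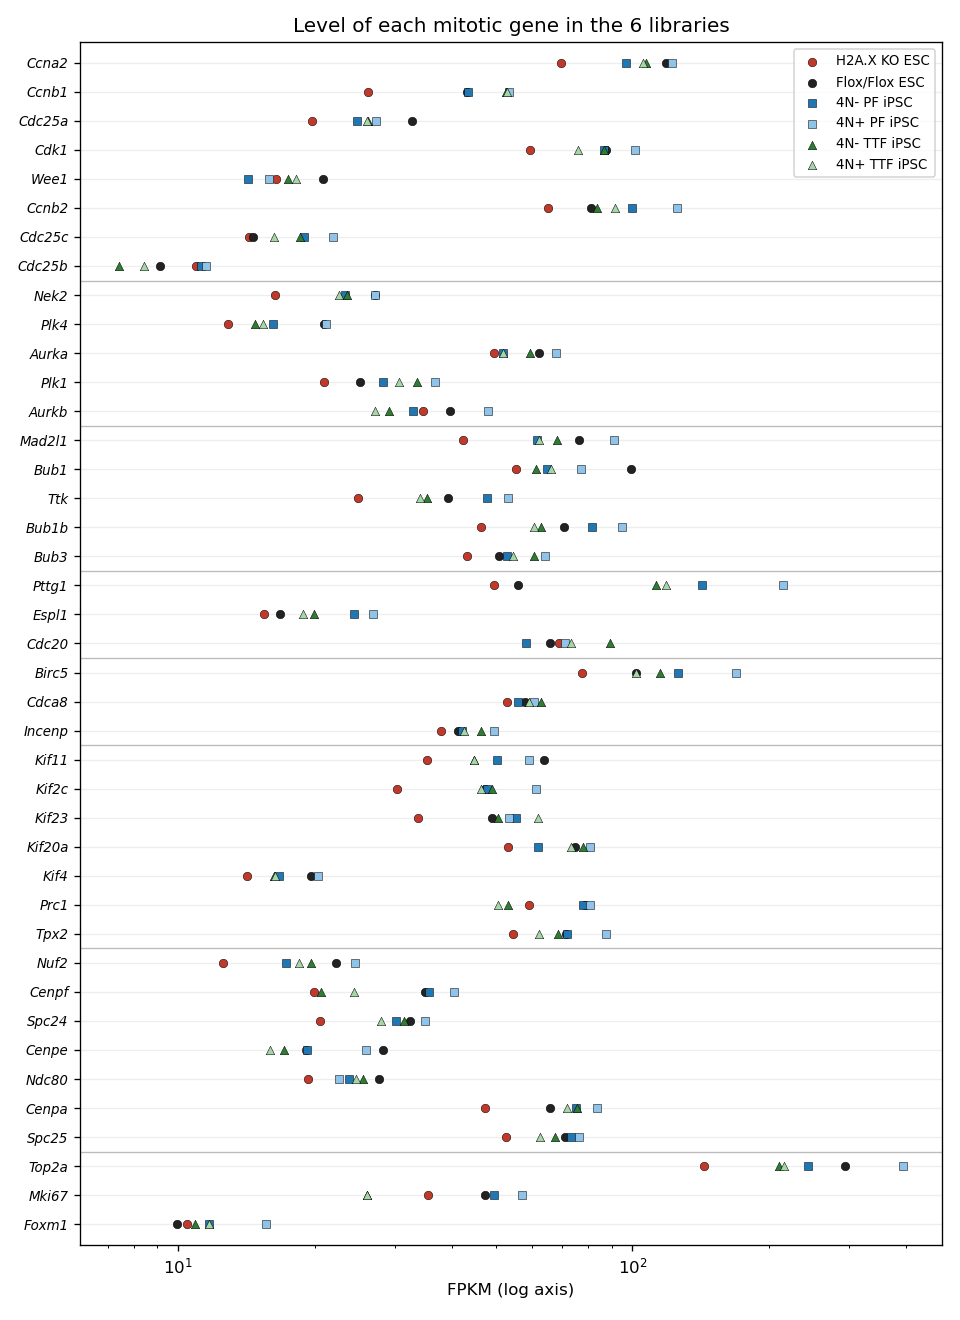
FPKM (log axis) of each of the 41 genes in the 6 libraries, grouped by role and, within a role, ordered by the ratio of H2A.X KO over Flox/Flox ESC. The red circles of H2A.X KO are the lowest of the 6 points for 33 of the 41 genes, against 28.1% of 12575 genes. The H2A.X KO library also had the smallest FPKM sum of the 6, and the tables may have been scaled separately. Top2a is the most abundant gene of the set in every library.

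The first comparison asked how the mitotic genes stood in ESC without H2A.X. Most of them were moderately lower in the H2A.X KO library than in the Flox/Flox library, with the topoisomerase gene Top2a, the motor gene Kif11 and the checkpoint genes Mad2l1 and Bub1 the lowest. In all, 38 of the 41 were lower, against a background of 51.7% of the 12086 measured genes (those at 1 FPKM or more in either library). The median log2 ratio of FPKM + 1 was -0.47, with a range of -1.03 to 0.24, against -0.03 for all measured genes. A ratio on this scale understates the change of genes with low levels. Summed over the 41 genes, the level was 1593 FPKM in H2A.X KO and 2298 FPKM in Flox/Flox ESC. At least 1.5-fold lower were 15 of the 41 (36.6%), against 15.9% of measured genes, and at least 2-fold lower only 1, Top2a, against 3.72%. None was 1.5-fold higher, against 17.8% of measured genes. In bulk RNA, fewer cells in mitosis and less RNA per cell cannot be told apart.

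Part of this difference is shared by abundant genes in general. Where both libraries reached 5 FPKM, the median ratio over genes was -0.20. With the ratios centred on it, 32 of the 41 members were lower, against 38.2% of measured genes, and the member median was -0.27. Only Top2a, Kif11, Mad2l1 and Bub1 were then 1.5-fold lower, 4 of 41 against 8.09%, and none was 2-fold lower, against 1.67%. Among the 5843 genes that reached 10 FPKM in either library, a level that all 41 members reach, 66.7% were lower, with a median of -0.26, and 25.9% were 1.5-fold lower. The centred direction of 9 members was higher: Aurkb, Pttg1, Cdca8, Incenp, Espl1, Cdc25c, Cdc20, Foxm1 and Cdc25b. In the authors' deposited table none of the 41 was called different, against 1.44% of the genes given a test there, and the lowest p-value of a member was 0.134 (Mad2l1, q-value 0.765).

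**Figure D3:**
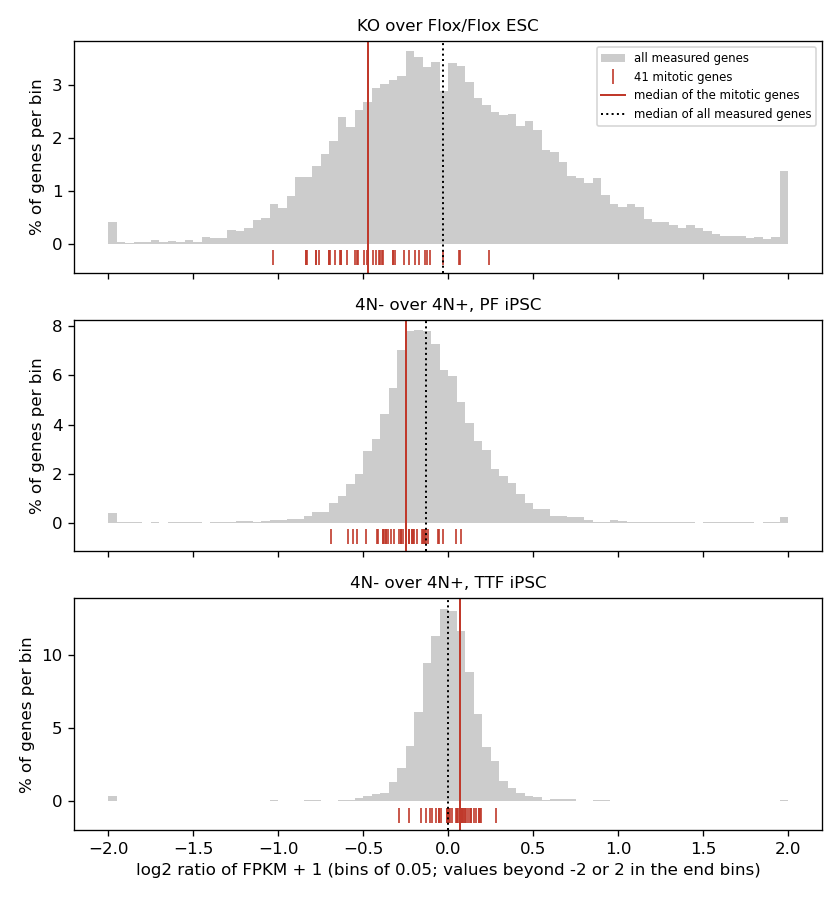
Distribution of log2 ratios of FPKM + 1 over all measured genes (grey, as % of genes per bin of 0.05, values beyond the axis gathered in the end bins) with the 41 mitotic genes as red ticks, their median as a red line and the median of all genes as a dotted line. The members lie at a median of -0.47 in H2A.X KO over Flox/Flox ESC, -0.25 in 4N- over 4N+ PF iPSC and 0.07 in 4N- over 4N+ TTF iPSC.

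Among the 8 genes of cyclins, CDK1 and its direct regulators, 7 were lower in H2A.X KO (median -0.44). The share to set beside the count of this and each later role is the 66.7% of genes at 10 FPKM or more that were lower. Ccna2, which encodes the cyclin A of S phase and G2, stood at 69.7 FPKM in H2A.X KO and 119 FPKM in Flox/Flox ESC (log2 ratio -0.76). Ccnb1, the main mitotic cyclin gene, stood at 26.2 FPKM in H2A.X KO and 43.2 FPKM in Flox/Flox ESC (-0.70). The catalytic partner of both cyclins was lower to a lesser degree, with Cdk1 at 59.5 FPKM in H2A.X KO and 87.5 FPKM in Flox/Flox ESC (-0.55). The regulators of CDK1 diverged from one another. Wee1, whose kinase holds CDK1 inactive, stood at 16.5 FPKM in H2A.X KO and 20.8 FPKM in Flox/Flox ESC (-0.32). Cdc25b, a phosphatase gene that starts CDK1 activation, was the one member of this role that was higher, at 10.9 FPKM in H2A.X KO and 9.13 FPKM in Flox/Flox ESC (0.24). The other CDC25 genes differed from it, Cdc25a with a log2 ratio of -0.70 and Cdc25c with -0.03, and the second B-type cyclin gene Ccnb2 had -0.31.

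All 5 mitotic kinase genes were lower (median -0.32), with Aurkb at 0.01 after centring. Nek2, a kinase gene for centrosome separation, stood at 16.4 FPKM in H2A.X KO and 27.1 FPKM in Flox/Flox ESC (-0.69). Plk1, the Polo-like kinase gene of mitotic entry and spindle assembly, differed less, at 20.9 FPKM in H2A.X KO and 25.2 FPKM in Flox/Flox ESC (-0.26). Aurkb, the catalytic subunit gene of the passenger complex, differed least, at 34.5 FPKM in H2A.X KO and 39.6 FPKM in Flox/Flox ESC (-0.19). The centriole duplication kinase gene Plk4, at -0.67, was thus close to Nek2, and Aurka (-0.32), whose kinase acts at the spindle poles, lay between.

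The spindle checkpoint genes had the lowest median of the 8 roles (-0.64). All 5 were lower, 4 of them at least 1.5-fold, against 25.9% of genes at 10 FPKM or more. After centring only Mad2l1 and Bub1 were 1.5-fold lower. Mad2l1, which encodes the MAD2 protein that sequesters CDC20, stood at 42.3 FPKM in H2A.X KO and 76.4 FPKM in Flox/Flox ESC (-0.84). Bub1b, the gene of BUBR1, which binds CDC20 with MAD2 and BUB3, stood at 46.4 FPKM in H2A.X KO and 70.8 FPKM in Flox/Flox ESC (-0.60). Bub1 (-0.83) and Ttk (-0.64), which encode the checkpoint kinases BUB1 and MPS1, lay with these. Bub3, whose product brings BUB1 and BUBR1 to kinetochores, was the exception in size, at 43.2 FPKM in H2A.X KO and 50.9 FPKM in Flox/Flox ESC (-0.23).

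The genes of anaphase onset, by contrast, were nearly level (median -0.11 over 3 genes). Cdc20, the target of the checkpoint, stood at 68.8 FPKM in H2A.X KO and 65.9 FPKM in Flox/Flox ESC (0.06). Pttg1, the gene of securin, which inhibits separase, stood at 49.5 FPKM in H2A.X KO and 56.0 FPKM in Flox/Flox ESC (-0.17). Espl1, the separase gene, had a ratio of -0.11. Cdc20 and its inhibitor Mad2l1 therefore had unlike ratios in the same pair of libraries.

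The 3 structural genes of the chromosomal passenger complex were all slightly lower (median -0.13), but after centring Incenp and Cdca8 were slightly higher (0.08 and 0.07). Incenp, the scaffold gene, stood at 37.9 FPKM in H2A.X KO and 41.4 FPKM in Flox/Flox ESC (-0.12). Birc5, the survivin gene, stood at 77.6 FPKM in H2A.X KO and 102 FPKM in Flox/Flox ESC (-0.39). Cdca8, the borealin gene, had a ratio of -0.13, and none of the 3 was 1.5-fold lower.

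All 7 kinesin and spindle midzone genes were lower (median -0.48). At least 1.5-fold lower were 2 of the 7, near the 25.9% of genes at 10 FPKM or more, and after centring only Kif11. Kif11, the gene of the motor that pushes spindle poles apart, stood at 35.3 FPKM in H2A.X KO and 63.9 FPKM in Flox/Flox ESC (-0.84). Tpx2, the gene of the spindle assembly factor that activates Aurora A, stood at 54.5 FPKM in H2A.X KO and 71.3 FPKM in Flox/Flox ESC (-0.38). Between them lay the microtubule depolymerase gene Kif2c, the cytokinesis motor genes Kif23 and Kif20a, the chromokinesin gene Kif4 and the midzone bundler gene Prc1, with ratios of -0.63, -0.53, -0.48, -0.44 and -0.40 in that order.

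All 7 centromere and kinetochore genes were lower as well (median -0.54). At least 1.5-fold lower were 3 of the 7, against 25.9% of genes at 10 FPKM or more, and none after centring. Nuf2 stood at 12.6 FPKM in H2A.X KO and 22.3 FPKM in Flox/Flox ESC (-0.78). Spc25 stood at 52.7 FPKM in H2A.X KO and 71.0 FPKM in Flox/Flox ESC (-0.42). Both encode subunits of the NDC80 complex, which grips microtubules. The other genes of that complex, Spc24 (-0.63) and Ndc80 (-0.50), fell within this range, as did Cenpa (-0.47), the gene of the centromeric histone H3 variant. The kinetochore protein genes Cenpf (-0.78) and Cenpe (-0.54) were also lower.

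In the remaining role, 2 of 3 genes were lower. Top2a, which encodes the topoisomerase that untangles sister chromatids (chromosome 11, 98854260 to 98885503 on mm9), stood at 144 FPKM in H2A.X KO and 294 FPKM in Flox/Flox ESC. It was 2.04-fold lower (log2 ratio -1.03), the largest difference of the set. Mki67, the gene of the proliferation antigen Ki-67, stood at 35.5 FPKM in H2A.X KO and 47.3 FPKM in Flox/Flox ESC (-0.40). Foxm1, a transcription factor gene for the G2 and mitosis programme, was nearly level, at 10.48 FPKM in H2A.X KO and 9.95 FPKM in Flox/Flox ESC (0.07).

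**Figure D4:**
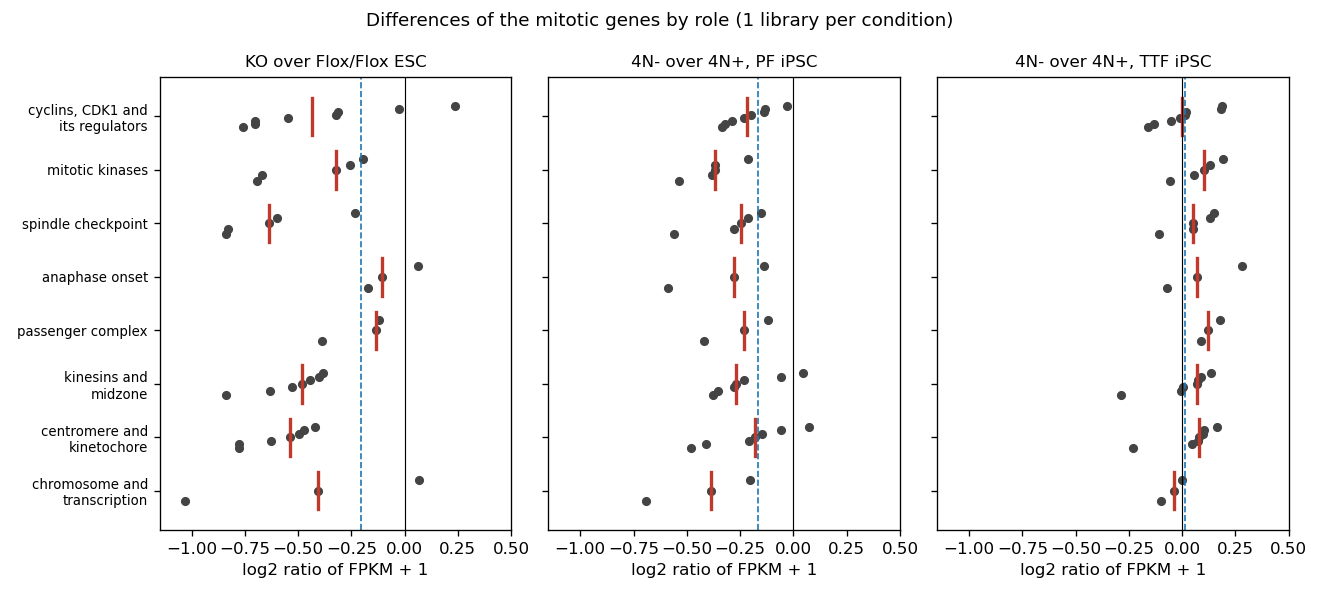
Log2 ratios of FPKM + 1 of the 41 genes by role, for H2A.X KO over Flox/Flox ESC and for 4N- over 4N+ iPSC from PF and from TTF, with 1 library per condition. Each point is a gene, red bars are role medians, and the dashed blue line is the median of all genes that reach 5 FPKM in each library of the pair (-0.20, -0.17 and 0.01). In the ESC panel the checkpoint genes have the lowest median, -0.64, and the genes of anaphase onset the highest, -0.11.

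Genes with a motif in the window and genes without it both spread over much of the range of ratios. The 23 genes with a CHR core in the window had a median ratio of -0.44 in H2A.X KO over Flox/Flox ESC, and the 9 without it -0.69. For CCAAT the medians were -0.47 with it over 25 genes and -0.63 without it over 7. Of the genes without CHR letters in the window, Mad2l1, Nuf2, Ccnb1, Nek2, Plk4 and Cdc25a were at least 1.5-fold lower and Cenpe, Birc5 and Pttg1 were not. A description across the 41 genes gave a Pearson r of -0.31 between the ratio and transcript length and of -0.34 between the ratio and the mean level of both libraries (all points share the same libraries). A wider set held 7197 genes with a protein-coding transcript that reached 5 FPKM in either library. Sorted into 5 groups of equal size by transcript length, their median ratio ran through -0.06, -0.12, -0.16, -0.22 and -0.23 from the shortest to the longest group. Member transcripts had a median length of 3236 bp. The part of length in the members' ratios was not tested.

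Set beside the iPSC lines, whose values come from other tables that may have been scaled separately, the H2A.X KO library was the lowest of the 6 for 33 of the 41 genes, against 28.1% of 12575 genes. The 8 exceptions were Cdc20, Cdc25b, Aurkb, Cenpe, Mki67, Prc1, Foxm1 and Wee1. The Flox/Flox library lay within the range of the 4 iPSC lines for 24 of the 41, against 44.9% of those genes. The 12575 genes are those at 1 FPKM or more in at least 1 library, and shares at the members' level were not computed. More abundant genes were more often lower in H2A.X KO than in Flox/Flox ESC, 66.7% at 10 FPKM or more against 51.7% of measured genes. The H2A.X KO library also had the smallest FPKM sum of the 6, at 263928.

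Other cell cycle lists were examined in the same pair of libraries, where 51.7% of measured genes and 66.7% of genes at 10 FPKM or more were lower. DNA replication licensing and fork genes were lower in H2A.X KO in 38 of 39 cases (median -0.63), with the origin recognition gene Orc2, the CDC7 kinase activator gene Dbf4 and the polymerase alpha gene Pola1 at least 2-fold lower. Cohesin and condensin genes were lower in 16 of 17 cases (median -0.68), with the cohesin regulator gene Pds5a at 27.0 FPKM in H2A.X KO and 58.4 FPKM in Flox/Flox ESC. Further checkpoint and kinetochore genes were lower in 23 of 29 cases (median -0.55). In that list Trip13, the gene of the ATPase that remodels MAD2, stood at 14.9 FPKM in H2A.X KO and 31.8 FPKM in Flox/Flox ESC. Further spindle and cytokinesis genes were lower in 18 of 22 cases (median -0.38), with Kif20b at 23.98 FPKM in H2A.X KO and 52.2 FPKM in Flox/Flox ESC. These lists thus shared the direction of the mitotic genes, and the first 3 had lower medians.

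Subunits of the anaphase-promoting complex and its activators (12 of 16 lower, median -0.28), genes of MYBL2 and the MuvB complex (7 of 10, -0.33) and further genes of mitotic entry (10 of 13, -0.26) lay nearer to abundant genes in general. Of genes at 10 FPKM or more, 66.7% were lower, with a median of -0.26. In the entry list the Hippo pathway kinase gene Lats2 was higher, at 4.39 FPKM in H2A.X KO and 0.75 FPKM in Flox/Flox ESC. The list of G1 cyclins, CDKs and CDK inhibitors divided, with 10 of 18 lower (median -0.28), near the 51.7% of measured genes. Its inhibitor gene Cdkn1a, which encodes p21, stood at 50.8 FPKM in H2A.X KO and 19.0 FPKM in Flox/Flox ESC. The inhibitor genes Cdkn1c, Cdkn2a and Cdkn2b were also at least 2-fold higher, whereas Ccnd1, the cyclin D1 gene, was lower at 14.98 FPKM in H2A.X KO and 32.98 FPKM in Flox/Flox ESC. The medians of the 8 cell cycle lists remained below 0 after centring, at -0.48 to -0.05.

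Markers of other cell types moved with this comparison. Summed over 10 trophoblast markers, the level was 971 FPKM in H2A.X KO and 42.6 FPKM in Flox/Flox ESC, with 7 markers at 1 FPKM or more in H2A.X KO and 5 in Flox/Flox ESC. The keratin genes Krt8, Krt18 and Krt7 and the factor genes Hand1 and Gata3 were at least 2-fold higher. Eomes (log2 ratio -0.39) and Ascl2 (-0.08) were lower, while Cdx2 stayed below 1 FPKM in both libraries and Elf5 and Tpbpa near 0. Over 10 endoderm markers the sum was 53.2 FPKM in H2A.X KO and 8.91 FPKM in Flox/Flox ESC, with Col4a1 and Gata4 at least 2-fold higher, Lama1 lower (-0.19) and Afp and Ttr at or near 0. Over 10 fibroblast markers it was 123 FPKM in H2A.X KO and 81.8 FPKM in Flox/Flox ESC, with Thy1 at least 2-fold higher, Fn1 the most abundant at 116 FPKM in H2A.X KO and 79.8 FPKM in Flox/Flox ESC, Lum listed at 0 in both libraries and Dcn near 0. The 10 pluripotency markers summed to 1501 FPKM in H2A.X KO and 2769 FPKM in Flox/Flox ESC. The largest part was Dppa5a, at 682 FPKM in H2A.X KO and 1264 FPKM in Flox/Flox ESC. As deposited all 10 were lower (median -0.78), against 51.7% of measured genes, and Sox2 and Tdgf1 were at least 2-fold lower. Nanog was level, at 111.2 FPKM in H2A.X KO and 111.3 FPKM in Flox/Flox ESC, and Utf1 (-0.32) and Zfp42 (-0.41) differed less than most. The part of these markers in the mitotic genes' ratios was not tested.

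The second comparison asked how the mitotic genes stood in iPSC lines labelled 4N- relative to 4N+. In the PF pair they were slightly lower in the 4N- line, led by Top2a, Pttg1, Mad2l1 and Aurkb, and in the TTF pair most were slightly higher or level. In the PF pair 39 of the 41 were lower, against 68.1% of 11606 measured genes, with a median log2 ratio of -0.25 (range -0.69 to 0.07). The 2 exceptions were Ndc80 (0.07) and Kif23 (0.05). Summed over the set, the level was 2268 FPKM in the 4N- PF line and 2872 FPKM in the 4N+ PF line. Only Top2a and Pttg1 were 1.5-fold lower, 2 of 41 against 4.85%, and none was 2-fold lower, against 0.974%. Where both PF libraries reached 5 FPKM, the median ratio over genes was -0.17. Centred on it, 30 of the 41 were lower, against 44.3% of measured genes, and the median was -0.08. None was then 1.5-fold lower, against 2.03%. Cdc25a, Cdc25b, Ttk, Cdca8, Cenpa, Spc25, Prc1, Espl1 and Wee1 were the members whose direction turned with that centring. Of genes at 10 FPKM or more in either PF library, 77.1% were lower, with a median of -0.19.

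In the TTF pair 28 of the 41 were higher in the 4N- line, against 50.1% of 11354 measured genes, and 26 after centring, against 47.1%. The median was 0.07 (range -0.29 to 0.28), and the set summed to 2159 FPKM in the 4N- TTF line and 2089.8 FPKM in the 4N+ TTF line. None of the 41 was 1.5-fold different, where only 0.907% of measured genes were 1.5-fold lower and 0.828% 1.5-fold higher. A lower level in the 4N- line of PF together with a higher one in the 4N- line of TTF was seen for 27 of the 41, against 34.8% of 11985 genes measured over both pairs, and for 19 of the 41 after centring, against 22.2%. Lower in both 4N- lines were 12 of the 41, against 32.4%. Ndc80 alone was higher in both, 1 of 41 against 14.8%, and Kif23, higher in the 4N- line of PF, was lower in that of TTF. Across the 41 genes the PF and TTF ratios had a Pearson r of -0.19, a description over points that share the same 4 libraries.

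**Figure D5:**
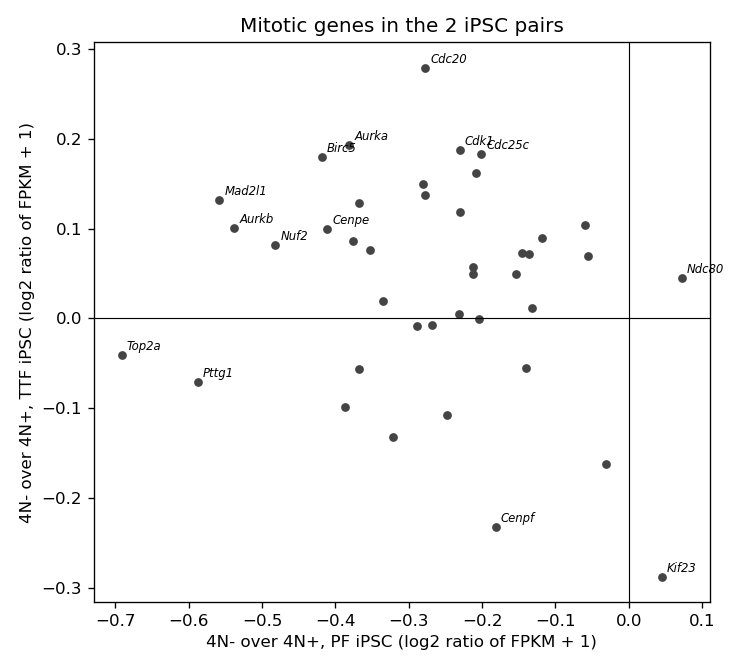
Log2 ratio of FPKM + 1 of 4N- over 4N+ iPSC from PF (horizontal) and from TTF (vertical) for the 41 genes, 1 library per condition. Of the 41 points, 27 lie at the upper left, lower in 4N- of PF and higher in 4N- of TTF (19 after centring), and Ndc80 is the only point above 0 on both axes.

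Top2a was the most abundant member in both pairs. It stood at 244 FPKM in the 4N- PF line and 394 FPKM in the 4N+ PF line (log2 ratio -0.69), and at 210.1 FPKM in the 4N- TTF line and 216 FPKM in the 4N+ TTF line (-0.04). Pttg1 had the next lowest ratio in PF, at 143 FPKM in the 4N- PF line and 215 FPKM in the 4N+ PF line (-0.59). It stood at 113 FPKM in the 4N- TTF line and 118 FPKM in the 4N+ TTF line (-0.07). The securin gene was thus the second most abundant member in 3 of the 4 iPSC lines. Foxm1 stood at 11.7 FPKM in the 4N- PF line and 15.6 FPKM in the 4N+ PF line (-0.39), and at 10.9 FPKM in the 4N- TTF line and 11.7 FPKM in the 4N+ TTF line (-0.10). Top2a, Pttg1 and Foxm1 were thus lower in both 4N- lines. Mki67 stood at 49.5 FPKM in the 4N- PF line and 57.2 FPKM in the 4N+ PF line, and at 26.004 FPKM in the 4N- TTF line and 26.019 FPKM in the 4N+ TTF line, nearly level.

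Among checkpoint and anaphase genes, Mad2l1 had the widest gap between the pairs of all 41 genes. Mad2l1 stood at 61.7 FPKM in the 4N- PF line and 91.3 FPKM in the 4N+ PF line (-0.56), and at 68.2 FPKM in the 4N- TTF line and 62.2 FPKM in the 4N+ TTF line (0.13). Cdc20 stood at 58.4 FPKM in the 4N- PF line and 71.0 FPKM in the 4N+ PF line (-0.28), and at 89.3 FPKM in the 4N- TTF line and 73.5 FPKM in the 4N+ TTF line (0.28). Bub3 stood at 52.9 FPKM in the 4N- PF line and 64.4 FPKM in the 4N+ PF line (-0.28), and at 60.8 FPKM in the 4N- TTF line and 54.7 FPKM in the 4N+ TTF line (0.15). In each of these 3 genes the direction turned between the parental cell types. Bub1b kept nearer to level, at 81.6 FPKM in the 4N- PF line and 94.7 FPKM in the 4N+ PF line (-0.21), and at 62.9 FPKM in the 4N- TTF line and 60.7 FPKM in the 4N+ TTF line (0.05). Bub1 (-0.25 in PF, -0.11 in TTF) was lower in both 4N- lines, Ttk had -0.15 in PF and 0.05 in TTF, and Espl1 -0.14 in PF and 0.07 in TTF.

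Ccna2 and Ccnb1 were lower in 4N- of the PF pair and level in TTF. Ccna2 stood at 96.7 FPKM in the 4N- PF line and 122 FPKM in the 4N+ PF line (-0.33), and at 107 FPKM in the 4N- TTF line and 106 FPKM in the 4N+ TTF line (0.02). Ccnb1 stood at 43.5 FPKM in the 4N- PF line and 53.4 FPKM in the 4N+ PF line (-0.29), and at 52.8 FPKM in the 4N- TTF line and 53.1 FPKM in the 4N+ TTF line (-0.01). Cdk1 turned, at 86.4 FPKM in the 4N- PF line and 102 FPKM in the 4N+ PF line (-0.23), and at 86.4 FPKM in the 4N- TTF line and 75.8 FPKM in the 4N+ TTF line (0.19). Cdk1 thus had a higher TTF ratio than Ccna2 or Ccnb1. Wee1 stood at 14.3 FPKM in the 4N- PF line and 15.8 FPKM in the 4N+ PF line, and at 17.4 FPKM in the 4N- TTF line and 18.2 FPKM in the 4N+ TTF line. Cdc25b stood at 11.2 FPKM in the 4N- PF line and 11.5 FPKM in the 4N+ PF line, and at 7.42 FPKM in the 4N- TTF line and 8.43 FPKM in the 4N+ TTF line. Both were slightly lower in the 4N- line of each pair, though not in PF after centring, and over the 8 genes of this role the median was -0.22 in PF and 0.00 in TTF.

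Among the kinases, Aurkb stood at 32.9 FPKM in the 4N- PF line and 48.2 FPKM in the 4N+ PF line (-0.54), and at 29.2 FPKM in the 4N- TTF line and 27.1 FPKM in the 4N+ TTF line (0.10). Plk1 stood at 28.3 FPKM in the 4N- PF line and 36.8 FPKM in the 4N+ PF line (-0.37), and at 33.5 FPKM in the 4N- TTF line and 30.6 FPKM in the 4N+ TTF line (0.13). Nek2 stood at 23.3 FPKM in the 4N- PF line and 27.2 FPKM in the 4N+ PF line (-0.21), and at 23.5 FPKM in the 4N- TTF line and 22.6 FPKM in the 4N+ TTF line (0.06). The kinases had the second lowest median of the 8 roles in PF (-0.37), and the median in TTF was 0.10.

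The partners of Aurora B in the passenger complex showed the same pair of directions. Birc5 stood at 126 FPKM in the 4N- PF line and 169 FPKM in the 4N+ PF line (-0.42), and at 115 FPKM in the 4N- TTF line and 102 FPKM in the 4N+ TTF line (0.18). Incenp stood at 42.2 FPKM in the 4N- PF line and 49.7 FPKM in the 4N+ PF line (-0.23), and at 46.4 FPKM in the 4N- TTF line and 42.6 FPKM in the 4N+ TTF line (0.12). Cdca8 had -0.12 in PF and 0.09 in TTF, so all 3 were lower in the 4N- line of PF and higher in that of TTF, except that the PF ratio of Cdca8 was 0.05 after centring.

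Spindle and kinetochore genes varied more among themselves. Kif11 stood at 50.3 FPKM in the 4N- PF line and 59.3 FPKM in the 4N+ PF line (-0.23), and at 44.9 FPKM in the 4N- TTF line and 44.7 FPKM in the 4N+ TTF line (0.00). Tpx2 stood at 71.9 FPKM in the 4N- PF line and 87.3 FPKM in the 4N+ PF line (-0.28), and at 68.6 FPKM in the 4N- TTF line and 62.3 FPKM in the 4N+ TTF line (0.14). The NDC80 complex genes were not alike in the PF pair. Nuf2 stood at 17.3 FPKM in the 4N- PF line and 24.6 FPKM in the 4N+ PF line (-0.48), and at 19.6 FPKM in the 4N- TTF line and 18.5 FPKM in the 4N+ TTF line (0.08). Spc25 stood at 73.4 FPKM in the 4N- PF line and 76.5 FPKM in the 4N+ PF line (-0.06), and at 67.5 FPKM in the 4N- TTF line and 62.7 FPKM in the 4N+ TTF line (0.10). Ndc80 was higher in the 4N- PF line (0.07) and Spc24 lower (-0.21). Kif23 stood at 55.4 FPKM in the 4N- PF line and 53.6 FPKM in the 4N+ PF line (0.05). It had the lowest TTF ratio of the set, at 50.6 FPKM in the 4N- TTF line and 62.0 FPKM in the 4N+ TTF line (-0.29).

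Over both pairs together, limma fitted to log2(FPKM + 1) of the 4 iPSC libraries, with parental cells as a block and Benjamini-Hochberg adjustment over all 11985 measured genes, called 14 genes (5 higher and 9 lower in 4N-), a background of 0.117%. None of the 41 members was among them, and none had an unadjusted p under 0.05, a level that 446 of all genes (3.72%) reached. By p-value the members nearest to a call were Foxm1 (difference -0.24, SE 0.16), Top2a (-0.37, SE 0.25) and Pttg1 (-0.33, SE 0.23), each with an adjusted p of 0.999 from limma. All 3 were lower in 4N- in both pairs. Each gene left 1 residual degree of freedom, to which limma added variance information from the other genes. With 2 lines of each label, differences of this size beside these SEs were not called, which does not show that they are absent. The members' median difference was -0.10, and -0.03 after centring. Whether the 2 lines of a pair shared an animal is not labelled.

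The authors' deposited tables called none of the 41 in either pair, against 0.537% of genes tested in PF and 0.301% in TTF. Their unadjusted p-values were below 0.05 for 2 members in PF, Mad2l1 (0.0454) and Pttg1 (0.0481), against 5.55% of genes tested, and for 1 in TTF, Kif23 (0.0492), against 4.58%. Summed fibroblast markers were lower in the 4N- line of both pairs. The 10 fibroblast markers summed to 86.0 FPKM in the 4N- PF line and 125 FPKM in the 4N+ PF line, with Lum listed at 0. Col1a1, Col1a2 and Postn were lower by 2-fold or more in 4N- of PF, at low levels. They stood at 0.23, 0.02 and 0 FPKM in the 4N- PF line and 2.12, 5.41 and 1.26 FPKM in the 4N+ PF line. The sums were 65.7 FPKM in the 4N- TTF line and 88.7 FPKM in the 4N+ TTF line. Most of each sum was Fn1, at 79.8 and 106 FPKM in the 4N- and 4N+ PF lines and at 60.8 and 83.9 FPKM in the 4N- and 4N+ TTF lines. Of the 10 pluripotency markers 6 were lower in 4N- of the PF pair, against 68.1% of measured genes. Among the 6 were Sox2 (-0.47), Utf1 (-0.43) and Tdgf1 (-0.37), and Fgf4 was higher (0.35). After centring the PF median of the 10 was 0.10. In the TTF pair 6 of the 10 were lower in 4N- as well, against 49.9% of measured genes. The pluripotency markers summed to 2589 FPKM in the 4N- PF line and 2679 FPKM in the 4N+ PF line, with Dppa5a the largest part. The part of the fibroblast and pluripotency markers in the mitotic genes' ratios was not tested.

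Some members carry a limit of their own. Ccnb1 shares 42.1% of its transcript's 50-base stretches with other annotated genes, mainly the pseudogene Ccnb1-ps, Cdc20 11.4%, Plk1 6.84%, Plk4 5.48% and Ndc80 5.34%, and their values are uncertain to the extent that reads were divided among copies. For Kif20a, Ccna2, Cdc20 and Foxm1 the deposited locus is 6.13, 2.66, 2.08 and 1.68 times as long as the annotated gene. Whether a neighbour lies within it was not tested. For Mad2l1 the deposited locus, at 5524 bp, is only 0.467 times as long as the annotated gene. It is also shorter than the 7557 bases of the transcript that entered the description of ratio and length. Strand use is not stated.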

How the data were processed

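The 6 libraries (Illumina TruSeq mRNA, per the labels' protocols) were deposited as 3 tables of 2 libraries and 22558 gene names each. Reads passed through CASAVA and TopHat2 on mm9, per the submitters' processing notes. The quantifier, the annotation, the versions and the use of strand are, in the sources used here, not given. The library columns were treated as FPKM deposited by the authors, from their layout and because values were not whole and summed to 263928 to 356260 per library. The scaling may differ between tables, and ratios therefore stay within one. The control column of the ESC table was taken as the Flox/Flox culture, the other ESC sample of that table. The p-value and q-value columns are the authors' deposited comparison and were only quoted. The authors' deposited log2 fold change and test statistic (other units) entered no result.

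From the FPKM, log2(FPKM + 1) was computed (Python 3.11.15, pandas 2.3.3). Genes at 1 FPKM or more in at least 1 library compared were measured. limma 3.58.1 was run on the 4 iPSC libraries (R 4.3.3, trend, parental block, adjusted p below 0.05). The same design was also run on simulated data with known changes alike in both pairs, which does not cover genes whose pairs disagree. The block keeps each comparison within a table, since the paired lines share parental cell type and table. Depth came from receptor genes of a single exon, whose values above 1 fragment were all within 0.05 of whole numbers. It is an effective figure and not a read total. Members named in full were the extremes of each role in the ESC ratio, those past 2-fold and a fixed list, and genes of other lists were named where 2-fold different. Bub1, Kif23, Ndc80 and other members named with single ratios, the fibroblast and trophoblast markers at or near 0, and the promoters shown were picked with values in view. The members and lists were chosen with earlier results of these data known. The result of a list of reference genes is not reported here.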

Additional observations from a re-analysis of the deposited data

Results flagged for a closer look

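The median ratio of the set, 4N- over 4N+ iPSC, took opposite directions in the PF and TTF pairs. So did the ratios of 9 of the genes given in full, which were selected for this. The share of all genes that meet the same rule was not computed. Each of the 9 differed by at least 0.1 on the log2 scale in both pairs as deposited, and kept opposite signs after centring, where some ratios were smaller than 0.1. With 1 library per condition in each pair, these differences were not tested. The members' median log2 ratio differed by -0.32 (PF minus TTF). Part of this was shared by genes at 5 FPKM or more, whose median ratio was -0.17 in PF and 0.01 in TTF. After centring the members' medians were -0.08 in PF and 0.06 in TTF. Lower in PF and higher in TTF were then 19 of the 41, against 22.2% of genes measured over both pairs. Among the 9 genes the gap between PF and TTF as deposited was widest for Mad2l1 (-0.69), Aurkb (-0.64), Birc5 (-0.60), Cdc20 (-0.56) and Plk1 (-0.50). Bub3 (-0.43), Cdk1 (-0.42), Tpx2 (-0.41) and Incenp (-0.35) followed.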

How the results depend on the processing

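Pseudocount 0.1 left every ESC, PF and TTF member count at its value and moved no median by 0.1. No filter and a minimum of 5 FPKM could not change these values, since every member was above 5 FPKM in every library. Scaling mattered. Centred on genes at 5 FPKM or more, the KO median was -0.27, with 4 members 1.5-fold and 0 members 2-fold lower, and the PF median was -0.082 with 0 members 1.5-fold lower. Scaling to the same FPKM sum without small RNA genes, chosen after seeing the data, gave a KO median of -0.26 with 4 and 0 members, and a PF median of -0.060 with 0. Of 330 alternative values of single genes, 88 moved by at least 0.1, all under these 2 scalings. Those under the 2 filter settings could not move. Under the scalings 15 changed sign, none of them larger than 0.193 in size as deposited. For limma, which called 14 genes, the count was 3 with no replicate block, 0 with no filter (1015 genes at an unadjusted p under 0.05) and 67 at a minimum of 5 FPKM. Without one library at a time, and with no replicate block, it ranged from 1 to 17, with 0 members called throughout. The members' median difference ranged from -0.28 without the 4N+ TTF line to 0.060 without the 4N+ PF line, where it reversed. The fits without one library, having no block, set values of different tables against each other. Without the 4N+ PF line, both 4N- lines were set against the 4N+ TTF line alone. The cause of the reversal was not tested. Leaving out a library of a 2-library table gives no ratio and was not possible there. Depth limits only the smallest ratios, while 1 library per condition limits every ratio.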
